A study of Mus musculus with 65 samples.

Results

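Genomic imprinting is the silencing of the copy of a gene that came from one parent, and in mice the imprinted genes lie in clusters, each governed by a DNA element that carries methylation on one parental copy. Several imprinted genes restrain growth and cell division, and a network of them is known for its expression in quiescent haematopoietic stem cells, among them the cell cycle inhibitor Cdkn1c (p57), the growth factor Igf2, the long noncoding RNAs H19 and Meg3 and the receptor adaptor Grb10. The genes described here are 40 imprinted genes that were listed by name, by a rule that reads no measured value, and are grouped by their domain. Of the 40, 38 had a row in the table of 18036 genes, matched through NCBI gene identifiers. Copg2 on chromosome 6 and Igf2r on chromosome 17 had none and are not analysed here.

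The cells were single long-term haematopoietic stem cells of SCL-tTAxH2B-GFP mice, in which the promoter of Scl drives the transactivator that switches on a histone H2B-GFP fusion, and a cell dilutes the label as it divides. All mice were double heterozygous and more than 20 months old. Lineage-depleted bone marrow was sorted as LSK CD34-/low Flk2- CD48- CD150+, and the 2 groups differ by GFP: 37 label-retaining (GFP-positive) cells against 28 non-label-retaining (GFP-negative) cells. Every cell of both groups spent a night in culture at 3% oxygen without growth factors before polyadenylated RNA was made into an amplified full-length cDNA library. The labels give 4 biological repeats, each with cells of both groups (9, 9, 10 and 9 label-retaining cells in repeats 1 to 4, and 8, 4, 6 and 10 non-label-retaining cells). They do not say how many mice a repeat holds, so a p-value here measures the spread between these repeats.

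Depth differed between the groups. Summed estimated counts per cell had a median of 264894 in label-retaining cells (lowest 27954, highest 2.05e+07) and of 118056 in non-label-retaining cells (lowest 86.1, highest 661078), and the 4 cells under 10000 counts were all non-label-retaining. The median cell had 1859 genes with a value of at least 1 in the label-retaining group and 890 in the non-label-retaining group. Of the stem cell genes Hlf, Gata2 and Meis1, Hlf had a value in 31 label-retaining cells and 12 non-label-retaining ones, Gata2 was found in 24 and 10 of them, and Meis1 in 22 and 11. Slamf1, which encodes the sorted marker CD150, was at 0 in every cell, and 9 of the 20 listed stem cell genes had a row.

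Some libraries had near-matching profiles. Over all genes the correlation of log2(value + 1) had a median of 0.303 across the 2080 pairs of cells and was at most 0.838 outside 5 pairs. In 3 of those 5 pairs the libraries were alr-hsc_20, alr-hsc_21 and alr-hsc_22, all label-retaining cells of repeat 3 with neighbouring indices in the labels (r = 0.952 to 0.981). The fourth joined alr-hsc_3, a label-retaining cell of repeat 1 and the deepest of the series, to anlr-hsc_3, a non-label-retaining cell of the same repeat with 1.66% of its counts (r = 0.901), so that these 2 carry different group labels. The fifth joined anlr-hsc_13 to anlr-hsc_14, non-label-retaining cells of repeat 3 (r = 0.895). No columns were identical, and all libraries were kept. Results that rest on them are given with all libraries and with the deepest library of each set alone, which leaves out alr-hsc_20, alr-hsc_22, anlr-hsc_3 and anlr-hsc_13. That limit, a correlation of 0.85, was chosen after the data were seen.

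The match was also seen among the imprinted genes. Of the 38 genes, 8 were found in all 3 of alr-hsc_20, alr-hsc_21 and alr-hsc_22, and these 3 libraries held 99.7% of the Tssc4 counts, 99.5% of the Grb10 counts, 99.0% of the Impact counts, 98.8% of the Meg3 counts and 98.1% of the Zrsr1 counts of label-retaining repeat 3. In anlr-hsc_3 there were 268 counts of Mkrn3, 150 of Commd1, 133 of Impact and 110 of Kcnq1ot1, which are 1.60, 1.95, 1.48 and 1.74% of the counts of the same genes in alr-hsc_3 (16749, 7720, 8963 and 6284). Every imprinted gene with at least 100 counts in anlr-hsc_3 was thus also a high one in alr-hsc_3, at a similar share of its counts.

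**Figure D1:**
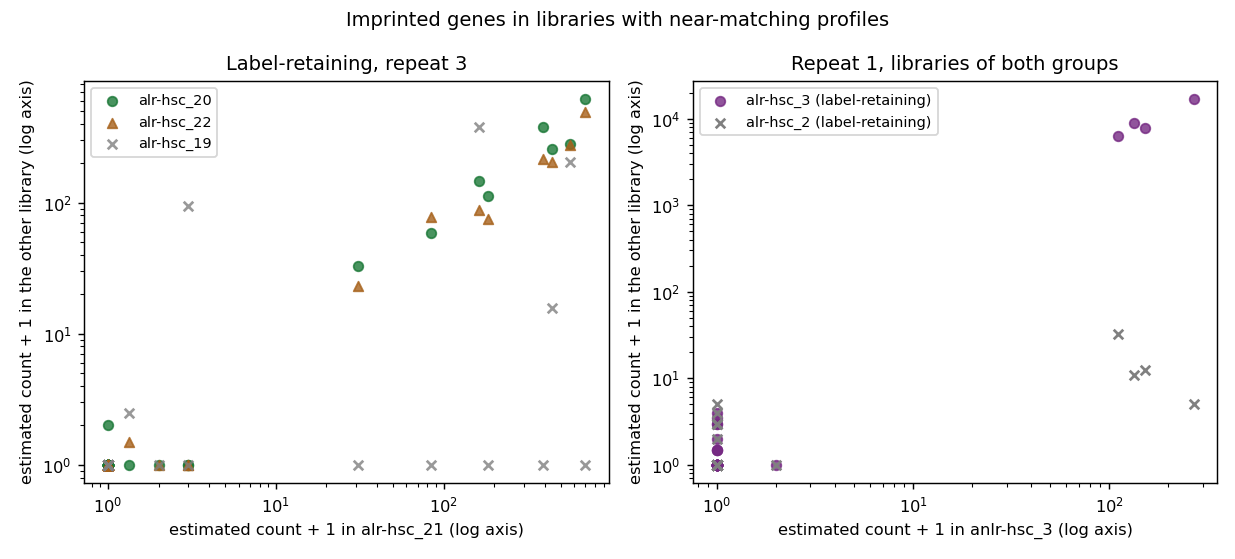
Each point is 1 of the 38 imprinted genes, with its estimated count plus 1 on log axes. Left: alr-hsc_20 and alr-hsc_22 (vertical axis) follow alr-hsc_21 (horizontal axis), while alr-hsc_19, another label-retaining cell of repeat 3, does not. Right: the 4 genes with over 100 counts in the non-label-retaining anlr-hsc_3 (Kcnq1ot1, Impact, Commd1 and Mkrn3) have 6284 to 16749 counts in the label-retaining alr-hsc_3 and far lower counts in alr-hsc_2.

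Detection of a gene is a value of at least 1 in a cell. By that measure 29 of the 38 imprinted genes were found in at least 1 of the 65 cells (76.3%, against 37.3% of the 18036 genes in the table), and 12 in 10 cells or more. A found imprinted gene was present in a median of 7 cells, against 10 for a found gene of any kind. The 12 were Kcnq1ot1, Peg12, Impact, Grb10, Nap1l4, Meg3, Commd1, Ube3a, Ppp1r9a, Zrsr1, Sgce and Tssc4, and 17 others were found in 1 to 9 cells. The 9 genes at 0 in every cell were Kcnq1, Slc22a18, Ascl2, Magel2, Zim1, Dlk1, Mirg, Dio3 and Peg10. Where every cell was at 0, the share with a value of at least 1 could, at this depth, be up to 8.11% in label-retaining, 10.7% in non-label-retaining and 4.62% in all cells (3 cells of the total, which covers counting error only). It sets no limit on cells that express the gene, and Slamf1 was at 0 too.

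By the parental copy that textbooks give as the active one, 16 of 20 paternally expressed genes and 12 of the 17 maternally expressed genes with a row were found, and the remaining gene, Grb10, is read from either copy according to tissue. The files do not separate the alleles, so none of the values below says which copy was read. Detection in 10 or more cells was reached by 5 paternally and 6 maternally expressed genes.

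**Figure D2:**
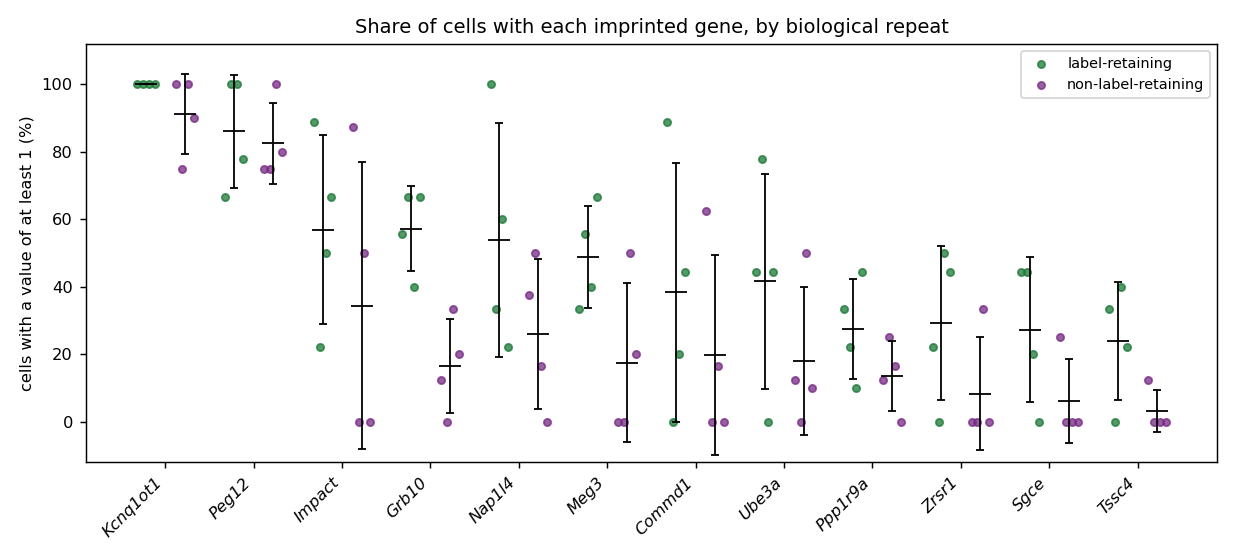
Share of cells with a value of at least 1 for the 12 imprinted genes found in 10 or more cells. Points are the 4 biological repeats of label-retaining (left of each pair) and non-label-retaining cells (right), with the mean and SD. The mean is higher in label-retaining cells for all 12 genes, and Grb10 is the gene whose 4 label-retaining repeats (40.0 to 66.7%) all lie above its non-label-retaining repeats (0 to 33.3%). Only Kcnq1ot1, Peg12 and Impact reached 10 cells within the non-label-retaining group, so the direction of the others is not read as a result.

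The comparison of the groups asks whether stem cells that kept the label differ from those that lost it. All 12 imprinted genes in 10 or more cells had a higher mean share of positive cells in the label-retaining group, as did 93.3% of all 3379 genes found that often. The difference had a median of 20.9 percentage points over the 12 genes, against 19.7 over the 3379. The limit of 10 cells counts both groups together. Within the non-label-retaining cells only Kcnq1ot1, Peg12 and Impact reached it (26, 23 and 10 cells). The direction of the other genes is therefore not read as a result about the imprinted genes, before or after thinning. The exact two-sided permutation test of the 4 shares against 4, adjusted by Benjamini-Hochberg over 6721 genes, called 0 genes (0%), with a smallest adjusted p of 0.655. The smallest p this design can give is 0.0286, and 293 genes reached it, all with the higher share in label-retaining cells. An adjusted p under 0.05 would need most of the 6721 genes at that p, so 0 called genes is no sign of equal shares. Among genes in 10 or more cells the shares of the groups did not overlap for 7.84% with the label-retaining group higher and for 0% with it lower. Grb10 was the 1 imprinted gene of 12 in that state, and the other 11 had adjusted p-values of 0.723 to 1.

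Because label-retaining cells were deeper, shares were also computed in expectation after thinning each cell to 10000 counts, which leaves out 4 non-label-retaining cells and no label-retaining cell. The median difference was then 13.5 points over the 12 imprinted genes, against 6.67 over all genes in 10 or more cells. The share was higher in label-retaining cells for 10 of the 12, against 75.7% of all such genes. Kcnq1ot1 and Peg12 were the exceptions. Grb10 and Meg3, 2 of the 12, were higher at the smallest possible p, as were 4.68% of all such genes (0.118% were lower), with no adjusted p under 1. Both genes reached the limit of 10 cells only with label-retaining cells counted. Neither these counts nor the medians are therefore read as a result about the imprinted genes.

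In level, 11 of the 12 genes (all but Ppp1r9a) passed the filter on low values that left 2786 genes. Each repeat of each group entered as the sum of its cells, in edgeR's quasi-likelihood fit. It called 0 of the 2786 genes (0%) at an adjusted p under 0.05, with a smallest adjusted p of 0.326. At an unadjusted p under 0.05, 180 genes were higher with label retention (6.46%) and 122 lower (4.38%), with 230 and 43 without TMM factors and 212 and 9 with the repeat as a block. DESeq2 on the same sums called 14 genes, 8 higher and 6 lower, none of them imprinted genes of the list. Of the 11 imprinted genes, 4 had an unadjusted p under 0.05, all higher in label-retaining cells: Zrsr1, Grb10, Tssc4 and Sgce. The filter asks for a mean of 10 counts per cell over both groups, and 9 of the 11 reached it through label-retaining cells alone (all but Kcnq1ot1 and Impact), as did 63.0% of the 2786 genes. Neither the direction of those 9 nor the count of 4 is therefore read as a result about the imprinted genes. In CPM the groups did not overlap for 2 of the 11, Nap1l4 and Grb10, both higher in label-retaining cells, against 5.28% of the 2786 genes higher and 0.179% lower. Both genes are among those 9, so this count is not read as a result about the imprinted genes either. Over all 2786 genes the log2 fold change had a median of 1.15 with TMM factors and of 1.78 without.

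**Figure D3:**
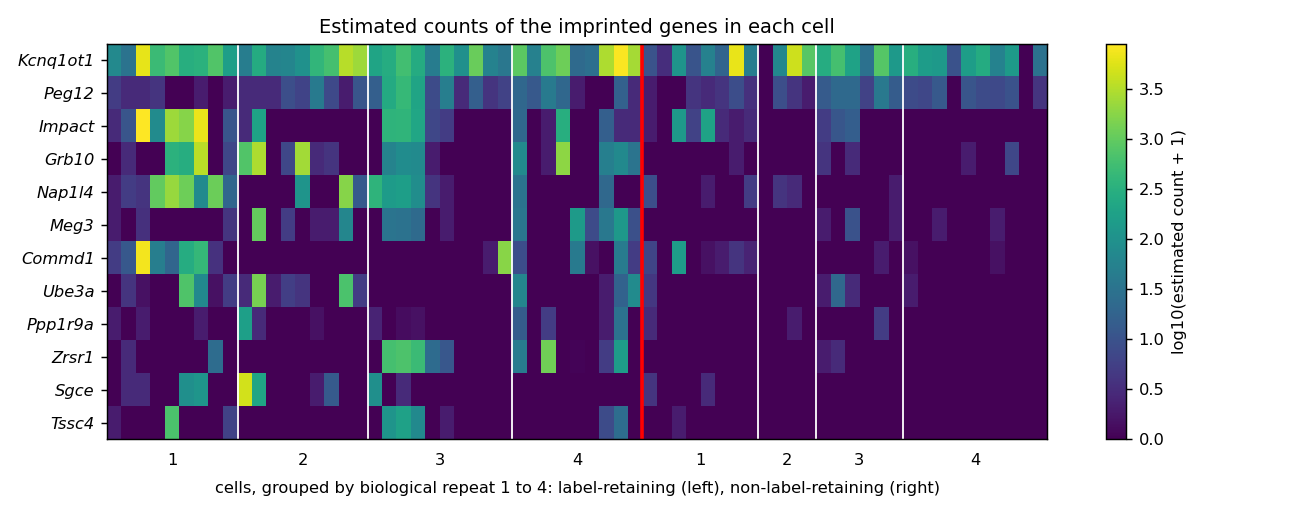
Estimated counts (log10 of the count plus 1, colour) of the 12 imprinted genes in each of 65 cells, which run left to right by biological repeat 1 to 4, label-retaining cells left of the red line and non-label-retaining cells right of it. Kcnq1ot1 and Peg12 fill most columns in both groups, while the other genes appear as single bright cells, most of them left of the line. The 3 neighbouring columns with a like pattern in label-retaining repeat 3 are alr-hsc_20, alr-hsc_21 and alr-hsc_22.

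The distal chromosome 7 domain joins the Igf2 and H19 pair to the cluster governed by Kcnq1ot1, a paternally expressed long noncoding RNA that is antisense to the potassium channel gene Kcnq1 and silences neighbouring genes on the same copy. Kcnq1ot1 (chr7:143213111-143296547, GRCm38.p6, minus strand) was found in 37 of 37 cells that retained the label and 26 of 28 that did not, the most of any imprinted gene here. The 2 cells without it had only 86.1 and 238 counts in total. Its estimated count had a lowest value of 22.0, a median of 303 and a highest of 8639 in label-retaining cells, against 0, 123 and 6608 in non-label-retaining cells. As a share of a cell's counts its median was 0.0654% in label-retaining cells and 0.0664% in non-label-retaining ones, with a highest value of 5.36%. It made up 34.0% of all counts of the imprinted genes.

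Neither the share of cells with Kcnq1ot1 (100% in label-retaining repeats and 91.3 ± 11.8% in non-label-retaining ones, SD, n = 4, exact permutation p = 0.429) nor its level separated the groups. TMM-scaled CPM, the counts of a gene relative to the scaled total of the summed cells, were 140, 397, 716 and 7519 in label-retaining repeats 1 to 4, against 4578, 21027, 3963 and 3271 in the non-label-retaining ones. Repeat 4 was the high one in the label-retaining group and repeat 2 in the non-label-retaining group, and the groups overlapped. In some repeats a single cell held most of the Kcnq1ot1 counts. These were alr-hsc_3 in label-retaining repeat 1 (6284 of 9194) and, in non-label-retaining repeats 1 and 2, anlr-hsc_7 (6608 of 6857) and anlr-hsc_11 (4440 of 5343). The log2 fold change of label-retaining over non-label-retaining cells was -1.90 ± 2.31 (SE, n = 4 repeats each, edgeR, unadjusted p = 0.410, adjusted p = 0.681). Leaving out replicates in turn gave -4.88 (without 4) to -0.50 (without 2). Per kilobase of its 93092 exonic bases in GENCODE M21, whose model is longer than that of RefSeq, the unscaled CPM averaged over cells was 36.6 ± 50.2 in label-retaining repeats and 73.9 ± 83.8 in non-label-retaining ones (SD, n = 4). Higher means in label-retaining repeats were those of Commd1 (173 ± 325), Ndn (111 ± 204), Nap1l4 (57.0 ± 48.4), Zrsr1 (49.4 ± 62.4), Grb10 (49.1 ± 47.6) and Impact (42.8 ± 46.0). Their spreads overlap that of Kcnq1ot1. In non-label-retaining repeats only H19 had a higher mean (169 ± 337, from 1 cell), while Nap1l4 had 6.86 ± 10.1 and Grb10 0.367 ± 0.365. Of the Kcnq1ot1 values, 85.7% were not whole numbers, as when reads that map to several places are shared out, against a median of 22.2% over genes in 10 or more cells. It lies inside Kcnq1 for all of its 83437 bases, and the library kit does not mark strand. Kcnq1 was at 0 in every cell, and how reads in the overlap were assigned is not given in the sources used here.

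Of its neighbours, Nap1l4 and Tssc4 were found in 10 or more cells and the growth regulators in at most 4. Nap1l4, which encodes a histone chaperone, was found in 20 of 37 label-retaining cells (median 1, highest 2226 counts) and 6 of 28 non-label-retaining cells (median 0, highest 8). Its shares were 100, 33.3, 60.0 and 22.2% in label-retaining repeats, against 37.5, 50, 16.7 and 0% in non-label-retaining ones, and these overlapped (exact permutation p = 0.229). Values of at least 10 counts were present in 15 label-retaining cells and 0 non-label-retaining cells, and by that stricter measure the shares per repeat averaged 40.6% in label-retaining cells and 0% in non-label-retaining ones, at the smallest possible p of 0.0286 by the exact permutation test (adjusted p = 0.449). Of all genes in 10 or more cells, 12.6% were higher at that p by the same measure and 0% lower. In CPM its label-retaining repeats (86.7, 101, 184 and 23.0) all lay above its non-label-retaining repeats (8.68, 19.7, 1.92 and 0), with a log2 fold change of 3.73 ± 2.45 (SE, edgeR, unadjusted p = 0.127, adjusted p = 0.512). With the repeat as a block the log2 fold change was 4.36 (unadjusted p = 0.0454), and with 1 library of each look-alike set 3.03 (unadjusted p = 0.170). Leaving out replicates in turn gave 2.50 (without 3, unadjusted p = 0.353) to 4.70 (without 2, unadjusted p = 0.113), all by edgeR. Without the look-alikes the shares of cells with Nap1l4 averaged 51.4% and 28.2% (exact permutation p = 0.343).

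Tssc4, which encodes a factor in the assembly of spliceosomal particles, was found in 9 label-retaining cells and in 1 non-label-retaining cell, anlr-hsc_3, with a single count. Its CPM was 10.4, 0, 87.9 and 14.1 in label-retaining repeats, against 0.668, 0, 0 and 0 in non-label-retaining repeats. The fitted log2 fold change was 6.61 ± 3.02 (SE, edgeR, unadjusted p = 0.0285, adjusted p = 0.429). The plain ratio of summed Tssc4 counts per total, 1081 counts against 1, was 104 with a 95% counting interval of 18.7 to 4131. That interval takes every count as a separate draw and leaves out the spread between cells and repeats. One library, alr-hsc_5, held 62.2% of the Tssc4 counts. Without replicate 3 the log2 fold change was 4.38 (unadjusted p = 0.190), and with 1 library of each look-alike set, where no non-label-retaining count is left, it was 11.09. Its shares averaged 23.9 ± 17.5% of label-retaining cells and 3.13 ± 6.25% of non-label-retaining ones (SD, n = 4, exact permutation p = 0.143). Of the 10 cells with Tssc4, 8 also had Nap1l4.

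Cdkn1c, the p57 inhibitor of cyclin-dependent kinases, was found in 3 label-retaining cells and 1 non-label-retaining cell, and 99.1% of its counts were in alr-hsc_4 (4739 counts). Igf2 was found in 4 label-retaining cells (highest 7 counts) and no non-label-retaining cell, and H19 in 1 non-label-retaining cell with 39 counts. No cell had both. Phlda2, a restraint on placental growth, had a single count in 1 label-retaining cell, while Kcnq1, the transporter gene Slc22a18 and the trophoblast regulator Ascl2 were at 0.

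The central chromosome 7 domain, known from Prader-Willi and Angelman syndromes in humans, holds paternally expressed genes beside the maternally expressed ubiquitin ligase gene Ube3a. Peg12, an intronless member of the Frat family of Wnt pathway proteins, was the second most often found imprinted gene, in 32 label-retaining cells and 23 non-label-retaining ones. Its counts were low, with a median of 4 and a highest value of 441 in label-retaining cells, against 5.5 and 38.3 in non-label-retaining cells. Its shares were 66.7, 100, 100 and 77.8% in label-retaining repeats and 75.0, 75.0, 100 and 80.0% in non-label-retaining repeats, and overlapped (exact permutation p = 0.829). At 10000 counts per cell its share was 34.0% in label-retaining cells and 42.4% in non-label-retaining ones. Its CPM was 0.198, 4.18, 236 and 49.1 in label-retaining repeats, against 12.7, 47.2, 215 and 158 in non-label-retaining repeats, which overlapped, with a log2 fold change of -0.58 ± 2.04 (SE, edgeR, unadjusted p = 0.776, adjusted p = 0.870), and its sign turned to 1.19 without TMM factors. The 3 look-alike libraries held 90.5% of its counts in label-retaining repeat 3.

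The promoters of Kcnq1ot1 and Peg12 are shown because both genes were found in most cells of both groups. A link between CpG content and detection was not tested. Among genes at 0 in every cell, promoters held from 2 CpGs (Slc22a18) to 25 (Dio3). CpG dinucleotides are the sites at which imprints are written, and the windows below run from 250 bases before to 50 after the gene start in RefSeq (GRCm38.p6), 5′ to 3′ on the strand of the gene, with each CG in capitals. Over 45 promoters of 31 of the 40 genes the median was 14 CpGs, against 7 over 32851 promoters of all genes. The window of Kcnq1ot1 (chr7:143296498-143296797, minus strand) has 9 and that of Peg12 (chr7:62464461-62464760, minus strand) 12.
Kcnq1ot1: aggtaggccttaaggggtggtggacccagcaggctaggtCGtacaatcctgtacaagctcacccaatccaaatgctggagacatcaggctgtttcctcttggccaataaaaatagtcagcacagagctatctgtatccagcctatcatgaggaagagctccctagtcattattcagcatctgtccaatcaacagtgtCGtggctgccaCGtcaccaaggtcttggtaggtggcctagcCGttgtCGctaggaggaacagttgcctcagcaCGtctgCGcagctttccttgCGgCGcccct
Peg12: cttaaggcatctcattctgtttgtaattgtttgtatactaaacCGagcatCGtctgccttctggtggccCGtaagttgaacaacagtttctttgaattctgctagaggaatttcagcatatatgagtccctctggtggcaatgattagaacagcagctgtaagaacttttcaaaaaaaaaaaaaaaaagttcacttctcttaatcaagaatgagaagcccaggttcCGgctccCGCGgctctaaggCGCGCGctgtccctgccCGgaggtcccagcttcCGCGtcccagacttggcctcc

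Ube3a was found in 15 label-retaining cells and 5 non-label-retaining ones, with highest values of 1376 and 21.0 counts. Its CPM was 12.3, 113, 0 and 71.1 in label-retaining repeats and 2.00, 0, 46.0 and 2.64 in non-label-retaining repeats, which overlapped, and the log2 fold change was 1.94 ± 2.34 (SE, edgeR, unadjusted p = 0.405, adjusted p = 0.678). It was 4.13 without TMM factors, and leaving out replicates in turn gave 0.72 (without 2), 0.86 (without 4), 1.90 (without 1) and 5.32 (without 3). Its shares averaged 41.7 ± 31.9% of label-retaining cells and 18.1 ± 21.9% of non-label-retaining ones (SD, n = 4, exact permutation p = 0.371). Ndn, which encodes the growth suppressor necdin, was found in 7 label-retaining cells, up to 2263 counts, and in 2 non-label-retaining cells, up to 6 counts. Mkrn3, a RING finger gene, was found in 4 and 3 cells. Its highest value, 16749 counts in alr-hsc_3, was 97.9% of all its counts, and its highest in a non-label-retaining cell was the 268 counts of anlr-hsc_3. Snrpn, which encodes a splicing protein, was found in 2 and 2 cells with at most 4 counts, and Magel2, a ubiquitin ligase regulator, was at 0.

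In the proximal chromosome 7 domain, the zinc finger gene Peg3 and the deubiquitinase gene Usp29 start head to head, and Zim1 lies beside them. Peg3 was found in 8 label-retaining cells of all 4 repeats and in no non-label-retaining cell. Its share averaged 21.9 ± 22.4% of label-retaining cells, against 0% of non-label-retaining cells (SD, n = 4), with an exact permutation p of 0.0286 and an adjusted p of 0.655. That p was reached by 293 of the 6721 genes tested, all with the higher share in label-retaining cells. The test of this rarer gene is given because of its values, so its p is not read as a result. One cell, alr-hsc_11, held 4761 counts of Peg3, 99.1% of the total. Only 2 cells reached 10 counts, both in label-retaining repeat 2, so by that measure the groups overlapped. After thinning the share of Peg3 was 7.37% in label-retaining cells and 0% in non-label-retaining ones, at the same p. Of all genes, 187 were then higher at that p and 4 lower. Usp29 was found in 3 label-retaining cells with at most 1.5 counts, and Zim1 was at 0.

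In the distal chromosome 12 domain the maternal copy gives the long noncoding RNAs Meg3, Rian and Mirg and the paternal copy Dlk1, Rtl1 and Dio3. Meg3 was found in 18 label-retaining cells (of 37) and in 5 non-label-retaining ones (of 28), with highest values of 1045 and 9.00 counts. Its shares were 33.3, 55.6, 40.0 and 66.7% in label-retaining repeats, against 0, 0, 50 and 20.0% in non-label-retaining repeats. The groups overlapped through non-label-retaining repeat 3, and the difference of 31.4 points had an exact permutation p of 0.0857 (adjusted p = 0.723). After thinning to 10000 counts Meg3 was expected in 23.8% of label-retaining cells and 1.99% of non-label-retaining ones, with no overlap and the smallest possible p of 0.0286. With 1 library of each look-alike set the unthinned shares averaged 45.1% and 15.0% (exact permutation p = 0.114). Its CPM was 0.0916, 60.6, 20.2 and 156 in label-retaining repeats, against 0, 0, 21.1 and 5.27 in non-label-retaining repeats. These overlapped, and the log2 fold change was 3.16 ± 2.47 (SE, edgeR, unadjusted p = 0.201, adjusted p = 0.565), and alr-hsc_11 held 66.3% of its counts. The value was 5.45 without TMM factors, 1.49 without replicate 4 and 6.01 without replicate 3.

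The other genes of that domain were at or near 0. Rian was found in 3 label-retaining cells and 2 non-label-retaining ones with at most 2 counts, and Rtl1, a retrotransposon-derived gene that Meg3 overlaps in the annotation, in 1 and 1 cells with at most 15 counts. Of the 5 cells with Rian, 2 had Meg3. Dlk1, a Notch family ligand, the deiodinase gene Dio3 and Mirg were at 0.

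Of the proximal chromosome 6 genes, Sgce and Ppp1r9a were found in 12 and 13 cells, with at least 10 counts in 6 and 3 label-retaining cells. The others with a row were at 0 or in few cells with at most 7 counts. Sgce, which encodes epsilon-sarcoglycan, was found in 10 label-retaining cells and 2 non-label-retaining ones. Its CPM was 3.19, 276, 22.6 and 0 in label-retaining repeats, against 3.34, 0, 0 and 0 in non-label-retaining repeats, and the groups overlapped. The log2 fold change was 6.12 ± 2.84 (SE, edgeR, unadjusted p = 0.0314, adjusted p = 0.429), but alr-hsc_10 held 90.2% of its counts (4874) and without replicate 2, which contains that cell, the value was 2.68 (unadjusted p = 0.312). The unadjusted p was 0.133 with the repeat as a block. Its shares averaged 27.2 ± 21.5% of label-retaining cells and 6.25 ± 12.5% of non-label-retaining ones (SD, n = 4, exact permutation p = 0.257). Ppp1r9a, which encodes the actin-binding neurabin, was found in 10 and 3 cells, and 73.0% of its counts were also in alr-hsc_10. It was not tested in level, and its shares (27.5 ± 14.8% of label-retaining cells and 13.5 ± 10.4% of non-label-retaining ones, SD, n = 4) had an exact permutation p of 0.2. Peg10, a retrotransposon-derived gene next to Sgce, was at 0. Nap1l5 was found in 2 and 1 cells, up to 7 counts, the hydrolase-like gene Mest in 1 and 1, up to 3 counts, and the calcitonin receptor gene Calcr in 1 label-retaining cell with 2 counts. The non-label-retaining cell anlr-hsc_15 gave the highest value of Mest, Nap1l5, Snrpn and Rtl1.

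In the proximal chromosome 11 domain, Grb10 had the largest difference in share of cells among the 12 genes. Grb10 encodes an adaptor that dampens insulin and Igf1 receptor signalling. It was found in 21 of 37 label-retaining cells, with a median of 2 and a highest value of 3531 counts, against 5 of 28 non-label-retaining cells, with a median of 0 and a highest value of 6. Its shares were 55.6, 66.7, 40.0 and 66.7% in label-retaining repeats and 12.5, 0, 33.3 and 20.0% in non-label-retaining repeats. Every label-retaining repeat lay above every non-label-retaining one. The means were 57.2 ± 12.6% of label-retaining cells and 16.5 ± 14.0% of non-label-retaining ones (SD, n = 4). The difference of 40.8 points had an exact permutation p of 0.0286 and an adjusted p of 0.655. With the repeats taken as pairs, the exact sign-flip p was 0.125, the smallest possible. No non-label-retaining cell had 10 counts of Grb10, against 14 label-retaining cells.

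The groups also did not overlap for Grb10 after thinning or without the look-alike libraries. After thinning to 10000 counts it was expected in 38.8% of label-retaining cells and 3.53% of non-label-retaining ones (exact permutation p = 0.0286), and with 1 library of each look-alike set its shares averaged 53.5% and 13.6% (exact permutation p = 0.0286). Its CPM was 63.8, 337, 51.8 and 940 in label-retaining repeats, against 0.668, 0, 9.58 and 18.5 in non-label-retaining ones, again with no overlap. This was a log2 fold change of 5.61 ± 2.48 (SE, edgeR, unadjusted p = 0.0236, adjusted p = 0.408). Leaving out replicates 1 to 4 in turn gave 4.95 to 6.74. These tests share the same cells and are not separate evidence. Grb10 passed the limits on cells and on level through label-retaining cells, so the tests are not read as a result about the imprinted genes.

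Zrsr1, a paternally expressed retrocopy related to the splicing factor U2af1, lies whole within the antisense gene Commd1 (4492 bases of overlap), so without strand their reads cannot be told apart where exons overlap. Zrsr1 was found in 11 label-retaining cells, up to 1261 counts, and in 2 non-label-retaining cells, up to 2 counts. Its CPM was 0.397, 0, 434 and 646 in label-retaining repeats, against 0, 0, 5.75 and 0 in non-label-retaining repeats. It was thus high in label-retaining repeats 3 and 4 and near 0 in repeats 1 and 2, and the groups overlapped. The log2 fold change was 7.51 ± 2.74 (SE, edgeR, unadjusted p = 0.00606, adjusted p = 0.326), the smallest p of the 11 imprinted genes. The ratio of summed Zrsr1 counts per total (3315 against 3 counts) was 107, with a 95% counting interval of 36.5 to 518. That interval, too, leaves out the spread between cells and repeats. With 1 library of each look-alike set the log2 fold change was 7.66 (unadjusted p = 0.00371), without replicate 4 it was 5.95 (unadjusted p = 0.0663), and without replicate 3, where no non-label-retaining count is left, it was 15.25. Its shares, 29.2 ± 22.8% of label-retaining cells and 8.33 ± 16.7% of non-label-retaining ones (SD, n = 4), had an exact permutation p of 0.257.

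Commd1, a regulator of copper handling and NF-kappaB, was found in 14 label-retaining cells and 6 non-label-retaining ones, and 75.0% of its values were not whole. Its CPM was 130, 0, 415 and 41.5 in label-retaining repeats and 108, 0, 1.92 and 2.64 in non-label-retaining repeats, with overlap (log2 fold change 2.35 ± 2.14, SE, edgeR, unadjusted p = 0.271, adjusted p = 0.605). Of its counts in non-label-retaining repeat 1, 92.9% came from anlr-hsc_3. Without that library and the other look-alikes the log2 fold change was 4.69 (unadjusted p = 0.0364). Leaving out replicates in turn gave 0.14 (without replicate 3, unadjusted p = 0.955) to 6.54 (without replicate 1, unadjusted p = 0.0315). Its shares averaged 38.3 ± 38.3% of label-retaining cells and 19.8 ± 29.5% of non-label-retaining ones (SD, n = 4, exact permutation p = 0.457). Only 4 of the 13 cells with Zrsr1 also had Commd1, all label-retaining.

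The promoters of Grb10 and Zrsr1 are shown because Grb10 had the largest difference in share of cells among the 12 genes and Zrsr1 the smallest unadjusted p in level, with CG in capitals as above. RefSeq gives Grb10 more than one start, and the windows differ: the one at chr11:12037371-12037670 has 45 CpGs, more than are in 98.1% of all promoters, and the one at chr11:12027922-12028221 has 9 (both minus strand). The counts do not say which start was used. That of Zrsr1 (chr11:22971755-22972054, plus strand) has 10. The hexamer TGCCGC, which the imprint-keeping protein Zfp57 binds when methylated, was searched on both strands (GCGGCA on the other, no overlap between them). It is in 13 of the 45 promoters of the imprinted genes (28.9%) and in 11.6% of all promoters. The hexamer itself holds a CpG, and the windows of the imprinted genes hold more CpGs (median 14 against 7). Some windows of the same gene also overlap, as for Mest. Whether the hexamer is more frequent at equal CpG content was not tested. Among the 5 windows printed it is in the CpG-rich one of Grb10, 1 match.
Grb10 CpG-rich start: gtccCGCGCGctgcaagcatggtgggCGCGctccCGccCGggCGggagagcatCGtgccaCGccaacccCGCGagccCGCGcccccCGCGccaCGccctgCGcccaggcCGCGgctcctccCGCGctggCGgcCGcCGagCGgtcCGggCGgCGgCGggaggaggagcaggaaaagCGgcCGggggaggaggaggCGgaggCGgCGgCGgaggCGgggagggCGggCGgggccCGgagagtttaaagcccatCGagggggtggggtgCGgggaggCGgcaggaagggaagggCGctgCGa
Grb10 other start: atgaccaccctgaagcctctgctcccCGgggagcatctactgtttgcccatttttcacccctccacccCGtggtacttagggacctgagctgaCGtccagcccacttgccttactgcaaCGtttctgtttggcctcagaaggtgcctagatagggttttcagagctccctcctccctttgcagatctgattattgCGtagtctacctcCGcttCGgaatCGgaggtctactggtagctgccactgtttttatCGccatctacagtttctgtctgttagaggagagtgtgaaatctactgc
Zrsr1: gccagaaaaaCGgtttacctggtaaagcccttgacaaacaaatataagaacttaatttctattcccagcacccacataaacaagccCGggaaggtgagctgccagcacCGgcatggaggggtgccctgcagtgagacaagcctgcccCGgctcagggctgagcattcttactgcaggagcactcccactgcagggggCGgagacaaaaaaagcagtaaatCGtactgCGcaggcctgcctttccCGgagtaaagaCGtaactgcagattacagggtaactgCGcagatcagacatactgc

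**Figure D4:**
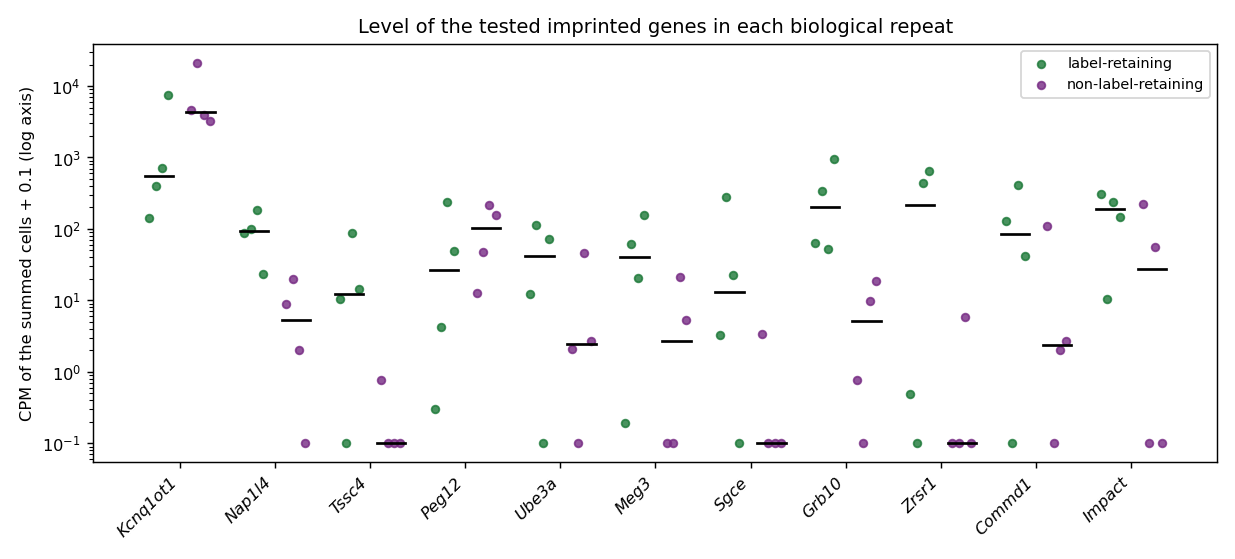
Level of the 11 imprinted genes tested, as TMM-scaled CPM of the summed cells plus 0.1 on a log axis. Points are the 4 biological repeats of label-retaining (left of each pair) and non-label-retaining cells (right), and the line is their median. The groups do not overlap for Nap1l4 and Grb10 (2 of 11, against 5.28% of the 2786 genes higher and 0.179% lower). Both passed the filter on low values through label-retaining cells alone, so their count is not read as a result. Kcnq1ot1 and Peg12 are the 2 genes with the lower median in label-retaining cells.

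On the remaining chromosomes, Impact, a brake on the amino acid sensor Gcn2, was found in 21 label-retaining cells and 10 non-label-retaining ones, with highest values of 8963 and 187 counts. Its CPM was 306, 10.4, 235 and 149 in label-retaining repeats and 221, 0, 55.5 and 0 in non-label-retaining repeats, which overlapped, though each label-retaining repeat was above the non-label-retaining cells of its own repeat. The log2 fold change was 1.33 ± 2.04 (SE, edgeR, unadjusted p = 0.514, adjusted p = 0.739), and 0.28 with 1 library of each look-alike set. Leaving out replicates in turn gave 0.49 (without 4) to 2.80 (without 1). Its shares averaged 56.9 ± 28.1% of label-retaining cells and 34.4 ± 42.5% of non-label-retaining ones (SD, n = 4, exact permutation p = 0.343). Plagl1, a zinc finger transcription factor, was found in 1 label-retaining cell with 127 counts and in 2 non-label-retaining cells with up to 5. The proteoglycan gene Dcn had 1 count in 1 label-retaining cell, and Zdbf2 was found in 2 label-retaining cells, up to 31 counts.

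Taking the 38 genes as a group, a label-retaining cell had 7.11 ± 1.23 of them and a non-label-retaining cell 4.01 ± 2.00 (mean of 4 repeats, SD), a ratio of 1.77. In 3 of 4 repeats the label-retaining mean was the higher one, with 5.90 in label-retaining cells and 6.50 in non-label-retaining ones of repeat 3. All genes gave a like ratio, with 1829 ± 444 in a label-retaining cell and 1012 ± 275 in a non-label-retaining one (1.81). Thinned to 10000 counts the numbers were 3.96 ± 0.89 and 2.17 ± 0.71 imprinted genes (ratio 1.82, 4 of 4 repeats), against a ratio of 1.51 for all genes (3 of 4 repeats). Counting values of at least 10 gave 4.20 ± 0.79 imprinted genes in label-retaining cells and 1.38 ± 0.78 in non-label-retaining ones. Over the 65 cells the number of imprinted genes followed the number of all genes (r = 0.802, Spearman's rho 0.794). Both numbers depend on the depth of the cell's library, and this is a description with no test.

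**Figure D5:**
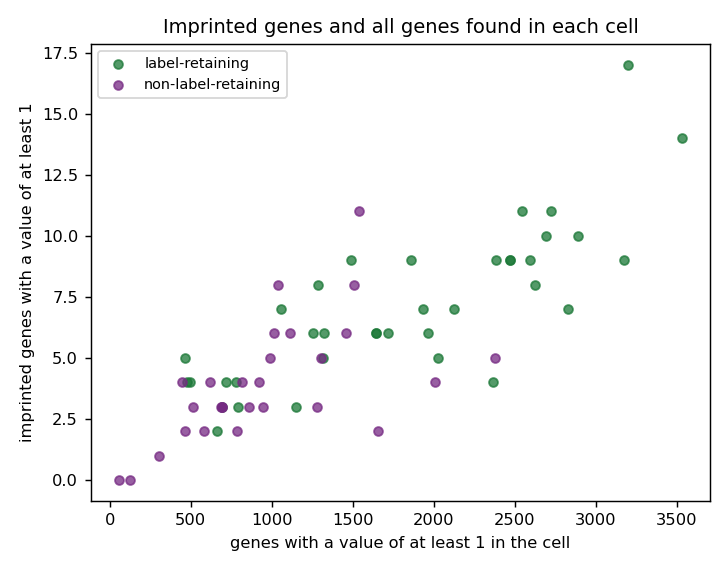
Imprinted genes with a value of at least 1 (vertical axis) against all genes with a value of at least 1 (horizontal axis) in each of 37 label-retaining cells and 28 non-label-retaining ones. The number of imprinted genes climbs with the number of genes in both groups, up to 17 in a label-retaining cell and 11 in a non-label-retaining one.

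The summed share of counts did not separate the groups. The 38 genes together took 0.245, 0.234, 0.665 and 1.45% of a cell's counts on average in label-retaining repeats, against 0.958, 1.79, 0.145 and 0.131% in non-label-retaining repeats. The means were 0.647 ± 0.569% and 0.756 ± 0.791% (SD, n = 4), a difference of -0.109 points that was positive without replicate 1 (0.0928) and without replicate 2 (0.374). The non-label-retaining group was the higher in repeats 1 and 2 and the label-retaining group in repeats 3 and 4. Single cells with much Kcnq1ot1 weighed on these means. It took 5.36% of the counts of anlr-hsc_7 (repeat 1), 3.94% of anlr-hsc_11 and 3.06% of anlr-hsc_12 (repeat 2). The other imprinted genes took 0.0101, 0.00532 and 0.00367% there. In label-retaining repeat 4 it took 3.23% of alr-hsc_35 and 3.04% of alr-hsc_37. Means per repeat without Kcnq1ot1 were not computed.

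Genes related to imprinting outside the list gave no called gene by either test. Of 48 other imprinted genes 24 had a row, 14 were found and 6 were tested in level, none at an unadjusted p under 0.05. Atp10a was at the smallest p in detection, and Inpp5f, Cd81 and Pon3 were the most often found (59, 38 and 31 of the 65 cells). Of 40 genes that neighbour the imprinted domains 29 were found and 15 tested, with 1 (Xpo1) higher at an unadjusted p under 0.05. The most often found were Ctsd, Phactr2 and Usp34 in 62, 58 and 38 cells. Of 39 genes that set or keep imprints 20 were found and 15 tested, with Mbd3 higher and Trim28 lower at an unadjusted p under 0.05, and Smc1a, Hnrnpu and Arid4a found most often (44, 44 and 43 cells). Of 20 genes of the Igf2 growth pathway 14 were found and 6 tested, with 0 past that p, and Ccnd2, Ccnd3 and Pik3r1 led (42, 41 and 28 cells). Of the stem cell genes 8 were found and 5 tested, and Etv6 was higher at an unadjusted p under 0.05.

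Those markers of other marrow cells that had a row were mostly near 0. A row was present for 8 of 12 stromal, 2 of 8 endothelial, 4 of 8 erythroid and 6 of 8 neutrophil genes. The same held for 5 of 8 monocyte and macrophage, 4 of 8 B cell and 5 of 8 T and NK cell genes. Markers without a row could not be read. The stromal genes Cxcl12, Col1a1, Col3a1 and Lum were at 0 in every cell, while Col1a2 was found in 17 label-retaining cells and 10 non-label-retaining ones, up to 599 counts. The stromal list took at most 0.0139% of the summed counts of a label-retaining repeat and 0.00524% of a non-label-retaining one. Highest summed shares were 0.00166 and 0.00401% for endothelial genes, 0.00618 and 0.000611% for neutrophil genes, 0.00484 and 0% for monocyte and macrophage genes, and 0.000432 and 0.000118% for T and NK cell genes, in label-retaining and non-label-retaining repeats each time. B cell genes reached 0.190% of a label-retaining repeat and 0.000443% of a non-label-retaining one, with Cd79a in 8 and 3 cells and past an unadjusted p of 0.05. Haemoglobin and other erythroid genes took 0.143 to 9.35% of label-retaining repeats and 0.386 to 3.18% of non-label-retaining ones, with Hba-a1 in 35 and 24 cells. The part of these cell types in the results was not tested, and the series holds no cell type that should lack the imprinted genes, so a background share of cells could not be measured.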

How the data were processed

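Single-cell RNA-seq of 65 sorted stem cells (SMART-Seq v4 cDNA, Nextera XT libraries, 1 sequencing run, per the labels) was taken from 1 table of genes by cells. The submitters' processing notes name the mm10 build and DESeq, and the table is called normalized. The deposited values are, however, unscaled estimated counts: cell totals run from 86.1 to 2.05e+07 and values are whole or fractional. Which aligner, counter and gene models were used is not given in the sources used here. Identifiers were matched to RefSeq (GRCm38.p6) for 16216 of 18036 genes. The table holds 46.7% of its 21900 protein-coding genes and none of 6 chromosomes, so totals and shares refer to that part.

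Cells are not replicates. Estimated counts were summed per repeat and group, rounded, and tested with edgeR 4.0.16 (R 4.3.3; TMM, robust quasi-likelihood, Benjamini-Hochberg) for genes with a mean of at least 10 per cell and found in at least 10 cells. Shares of cells were tested by exact two-sided permutation of the 4 repeats against 4. DESeq2 1.42.0, limma 3.58.1 and the other settings in the closing section were alternatives. Both scripts were tested on simulated data. With a common dispersion of 3.42, 0 called genes is no sign of equal groups. Non-label-retaining repeats 3 and 4 had TMM factors of 0.290 and 0.223, against 1.44 to 2.04 elsewhere, which raises their CPM.

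The labels number the repeats alike in both groups. Deviations from the group means correlated between same-numbered sums (0.554, 0.291, 0.170 and 0.157 for repeats 1 to 4). These correlations were not tested, and that of repeat 1 includes the look-alike libraries alr-hsc_3 and anlr-hsc_3. The numbers may pair the samples, so a fit with the repeat as a block was run beside the main one. Counting intervals and floors cover counting error only, since the libraries carry no molecular identifiers. Doublets were not called, because cells were sorted singly. Every listed gene is accounted for, those in 10 or more cells in full. The rule for the genes reads no measured value, but the genes, lists and named-gene rule were chosen with earlier results of these data known. Promoter sequences are those of RefSeq.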

Additional observations from a re-analysis of the deposited data

Results flagged for a closer look

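A sample that stood far from the other 3 of its group was found in 12 of 50 groups checked over the named genes, where chance gives about 1 in 20. Of the 12, 6 are 3 genes whose other repeats are all at 0, each counted by level and by share, so the number cannot be read against chance. For Kcnq1ot1 these were label-retaining repeat 4, at 7519 CPM, and non-label-retaining repeat 2, at 21027 CPM. For Tssc4 they were label-retaining repeat 3, at 87.9 CPM, and non-label-retaining repeat 1, at 0.668 CPM and 12.5% of cells, which is the single count in anlr-hsc_3. For Sgce they were label-retaining repeat 2, at 276 CPM, and non-label-retaining repeat 1, at 3.34 CPM and 25.0% of cells. Zrsr1 stood apart in non-label-retaining repeat 3, at 5.75 CPM and 33.3% of cells, with the other 3 repeats at 0. Ube3a stood apart in non-label-retaining repeat 3, at 46.0 CPM. Commd1 stood apart in non-label-retaining repeat 1, at 108 CPM, of which anlr-hsc_3 gave 92.9% of the counts.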

How the results depend on the processing

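No gene of the table was called by edgeR or by the permutation test under any alternative run, while DESeq2 called 14 genes in level, none of them imprinted genes of the list. With the repeat as a block, which pairs the sums, 0 genes were called in level and 0 in detection, where sign flips cannot give a p under 0.125. Without 1 replicate the permutation test cannot give a p under 0.1. The detection runs with a block or without a replicate could therefore call no gene, whatever the values. The other detection runs, the main one included, could call a gene only with most of the tested genes at the smallest p. For single imprinted genes the direction was kept in 130 level values and 115 detection values over the alternatives and turned in 2 and 4, and Kcnq1ot1 detection had a difference of 0 without cells under 10000 counts. The exceptions in level were Peg12 at 1.19 without TMM factors and 0.61 with no filter. In detection, at 10000 counts per cell, Kcnq1ot1 was at -2.88 points and Peg12 at -8.39, and Peg12 was at -10.3 without cells under 10000 counts and between -3.52 and 7.59 when each replicate was left out, lowest without replicate 2. The summed share of counts differed by -0.583 to 0.374 points when each replicate was left out. Most of the 17 genes in 1 to 9 cells were too sparse at this depth for the shares to be told apart.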
